A study of Homo sapiens with 9 samples.

Results

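In cells of the human B-cell lymphoma line DOHH2, 12 intergenic long noncoding RNA genes were at least 2 times higher in every library from mouse femur than in any library from culture. They were LINC01781, AC245060.2, LINC00996, AL133467.1, AC110285.2, LINC01238, LINC00926, AL713998.1, AL035696.3, LINC01480, LINC00163 and MIR29B2CHG. The genes were taken from the 7358 genes of type lincRNA in GENCODE release 29 that the files hold, out of 58243 gene identifiers in all. A member needed at least 1 CPM (counts per 1000000 counts of the library) in each of the 6 femur libraries, and a lowest femur CPM of at least 2 times its highest culture CPM. MALAT1 and NEAT1 were left out by name, and neither met both conditions. The members were thus chosen by their femur and culture values, and these are given below as a description with no test.

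The series held 9 RNA-seq libraries in 3 groups of 3. The day 0 group was DOHH2, an established line derived from a transformed follicular lymphoma, in culture on the day of grafting. The day 19 and day 40 groups were human CD20-positive cells sorted from the femurs of RAGγc mice, an immunodeficient strain, that carried a DOHH2 graft. Every group was the same cell line with no further genotype or drug in the labels, and the labels name no animal or culture behind a library. The p-values therefore reflect how much these libraries varied within a group, and part of that variation may be technical. Femur cells were released by enzymes, depleted of mouse blood cells with beads and sorted, steps that the protocol describes for bone, so growth in the femur and this handling cannot be told apart. Each title ends in a number that is read here as a date, which the titles themselves do not state. Libraries with the same replicate number are taken as a period. By these dates, day 40 replicate 1 came 11 days after the culture library of its period and replicate 2 came 26 days after. Their labelled day therefore cannot be counted from those cultures. Day 19 replicate 1 came 18 days after its culture library, so it was dated later than day 40 replicate 1. In bulk RNA, fewer cells of a type and less RNA per cell cannot be told apart either.

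Long noncoding RNAs are transcribed and often spliced like messenger RNAs but encode no known protein. Intergenic ones lie between coding genes. Some act on chromatin or on RNA, some are only the precursor of small RNAs, and for many no function is known. Their levels are often low and differ sharply between cell types and cell states, including stages of B-cell development.

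The members' sequences are shown where the reference held them, because they show what kind of transcript is meant. MIR29B2CHG is the host gene of the microRNAs miR-29b-2 and miR-29c, whose hairpins lie in its exons on the same strand of chromosome 1. The mature 3p forms from RefSeq (GRCh38.p14) share a seed, the bases 2 to 8 that pair with target messages, here in capitals.
hsa-miR-29b-3p: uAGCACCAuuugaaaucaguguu
hsa-miR-29c-3p: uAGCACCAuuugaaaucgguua
Among RefSeq entries, 3 mature names carry this seed, miR-29a-3p, miR-29b-3p and miR-29c-3p. The family is known for repressing collagen and other matrix genes and DNA methyltransferase genes. The gene counts measured the host transcript and say nothing of the mature microRNAs.

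Promoters, 250 bases before to 50 bases after a RefSeq start site, were in the table for 4 of the 12 members, and LINC01781 had 2 entries. They are shown because these genes were low or silent in culture and higher in femur. The other members had no entry under their symbol. Capitals mark a match on either strand to any of 8 motifs. GGGCGG is the GC box and CCAAT the box of that name. TATAAA is the TATA box, TGANTCA the site of AP-1, and TGACGTCA the cAMP response element. CACGTG is the E-box, and the last are the interferon response element and a loose NF-kB site.
LINC01781, chr1:80535505-80535804, plus strand: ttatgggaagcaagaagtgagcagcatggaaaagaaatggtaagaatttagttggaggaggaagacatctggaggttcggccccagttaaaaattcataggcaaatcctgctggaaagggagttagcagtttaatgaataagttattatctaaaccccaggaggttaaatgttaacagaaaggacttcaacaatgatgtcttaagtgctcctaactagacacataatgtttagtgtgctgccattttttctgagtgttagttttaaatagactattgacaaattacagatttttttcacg
LINC01781, chr1:80641037-80641336, plus strand: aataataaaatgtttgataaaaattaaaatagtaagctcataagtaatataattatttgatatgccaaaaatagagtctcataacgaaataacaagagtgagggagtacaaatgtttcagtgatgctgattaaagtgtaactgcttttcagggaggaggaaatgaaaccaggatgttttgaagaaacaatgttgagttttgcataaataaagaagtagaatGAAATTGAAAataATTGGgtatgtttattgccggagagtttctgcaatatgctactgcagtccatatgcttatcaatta
MIR29B2CHG, chr1:207822654-207822953, minus strand: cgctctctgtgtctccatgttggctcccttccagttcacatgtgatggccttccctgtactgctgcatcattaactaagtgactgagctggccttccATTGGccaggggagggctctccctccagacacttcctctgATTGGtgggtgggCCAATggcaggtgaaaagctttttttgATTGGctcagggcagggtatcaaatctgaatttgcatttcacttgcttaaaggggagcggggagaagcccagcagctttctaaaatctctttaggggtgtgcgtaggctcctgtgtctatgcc
LINC00996, chr7:150433404-150433703, plus strand: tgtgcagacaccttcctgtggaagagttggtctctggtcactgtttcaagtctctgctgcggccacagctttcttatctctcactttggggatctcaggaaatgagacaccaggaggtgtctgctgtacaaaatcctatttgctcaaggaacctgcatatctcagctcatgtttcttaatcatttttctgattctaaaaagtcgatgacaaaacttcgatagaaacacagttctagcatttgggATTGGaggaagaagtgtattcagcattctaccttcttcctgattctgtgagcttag
LINC00163, chr21:44994037-44994336, minus strand: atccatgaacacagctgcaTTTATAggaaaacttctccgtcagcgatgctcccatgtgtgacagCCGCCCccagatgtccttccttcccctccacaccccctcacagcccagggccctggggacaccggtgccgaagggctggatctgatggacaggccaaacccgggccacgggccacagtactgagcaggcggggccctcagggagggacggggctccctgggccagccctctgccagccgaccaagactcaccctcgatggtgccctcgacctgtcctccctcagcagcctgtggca
The first LINC01781 entry and those of LINC00996 and LINC00163 began at the GENCODE start of the gene. The second LINC01781 entry lay 105532 bases inside the gene and that of MIR29B2CHG 56393 bases inside. The MIR29B2CHG promoter held 4 CCAAT matches, and 0.991% of the 35116 promoters in the table held at least 4. A CCAAT match was present in 3 of the 5 member promoters and in 34.6% of all promoters. The interferon response element was found in 1 of 5, the inner LINC01781 promoter, and in 3.57% of all. The only GGGCGG and TATAAA matches were in the LINC00163 promoter, and these letters occur in 45.0% and 11.5% of all promoters. No member promoter held the AP-1 site, the cAMP response element, the E-box or the NF-kB site, which occur in 7.71%, 1.85%, 7.26% and 6.52% of all. A match is only a run of letters, searched in this window alone.

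Libraries held between 21071239 and 29456271 counts. Genes of type lincRNA other than MALAT1 and NEAT1 took 0.274% to 0.297% of the counts in culture and 0.292% to 0.308% in femur. The 12 members summed to 8.03 to 11.9 CPM in culture, 95.3 to 103 CPM at day 19 and 77.2 to 85.5 CPM at day 40. Cell identity was checked with marker lists. The B-cell markers MS4A1, CD79A and PAX5 were high in every library but moved in different directions. Against culture the log2 fold change at day 19 and day 40 was -1.38 and -0.77 for MS4A1, -0.96 and -0.81 for CD79A, and 0.71 and 0.52 for PAX5. Summed B-cell marker levels were 3542 to 4106 CPM in culture, 2405 to 2609 at day 19 and 2781 to 3007 at day 40. Of 7 stromal markers, COL1A2, COL3A1, LUM and CXCL12 had 0 counts in all 9 libraries. The summed stromal level nevertheless moved with the femur, from 0.698 to 1.27 CPM in culture to 5.05 to 7.69 at day 19 and 4.40 to 5.43 at day 40, of which PDGFRB made 4.02 to 6.74 and 3.24 to 3.87 CPM. Summed myeloid markers were 2.55 to 5.01, 5.08 to 6.39 and 2.90 to 5.84 CPM, with S100A8 and S100A9 at 0. Summed erythroid markers stayed at or under 0.166 CPM, T and NK markers at or under 4.57 CPM and endothelial markers at or under 6.94 CPM in every library. Summed plasma cell markers were 1311 to 1618, 793 to 844 and 921 to 1047 CPM. The part of these levels, and of mouse reads that might be counted as human, in the members' values was not tested.

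LINC01781 lies on chromosome 1 (80535755 to 80646788, plus strand, hg38) and is known from single-cell atlases of blood as a marker of memory B cells. It was the most abundant member. Its CPM was 0.205, 0.499 and 0.116 in the culture libraries, 39.6, 34.0 and 28.0 at day 19, and 24.3, 30.0 and 33.3 at day 40. Culture rested on 3 to 12 counts a library and femur on 645 to 886. The log2 fold change against culture was 6.86 (SE 0.29) at day 19 and 6.65 (SE 0.30) at day 40. It made up 28.5% to 40.7% of the summed member level in femur and 1.28% to 6.22% in culture. Its gene body overlaps AL136234.1 on the opposite strand, which shares no exon base with it and had a mean of 0 CPM in each group. The nearest coding gene, ADGRL2, was 659372 bases away.

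LINC00996 and LINC00163 had no count in any culture library. LINC00996 (chromosome 7, 150433654 to 150448140, plus strand) lies 2490 bases before GIMAP8, in the cluster of GTPase genes of lymphocytes. Its CPM was 7.46, 8.87 and 7.38 at day 19 and 8.37, 6.18 and 5.14 at day 40. Taking 3 counts over the whole culture group as its limit, it was at least 195-fold higher at day 19 and at least 163-fold higher at day 40. LINC00163 (chromosome 21, 44989864 to 44994086, minus strand) lies near the coding genes FAM207A, ITGB2 and ADARB1. It reached 2.41, 4.08 and 3.86 CPM at day 19 and 1.75, 1.70 and 1.74 CPM at day 40, at least 85.1-fold and at least 42.7-fold higher than culture. All day 19 libraries of LINC00163 were above all day 40 libraries, whereas those of LINC00996 overlapped. Neither gene overlaps another annotated gene. These bounds cover counting error only.

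MIR29B2CHG (chromosome 1, 207801518 to 207879096, minus strand) had 2.59, 1.33 and 1.71 CPM in culture. It had 16.8, 10.7 and 13.5 CPM at day 19 and 16.5, 6.04 and 9.50 CPM at day 40 (log2 fold change 2.78, SE 0.35, and 2.42, SE 0.35). The spread within a femur day was wide, and the lowest day 40 library, replicate 2, was close to the rule's limit. With 16425 exon bases it was the longest member and the lowest per exon length. Of the 14 other microRNA host genes on a list of known long noncoding RNAs, 9 were tested, 3 were higher and 1 was lower than culture at each femur day. The background over the whole fit was 26.3% of genes called upward and 26.5% downward for day 19, and 23.3% each way for day 40. Whether these few hosts differ from that background was not tested. MIR17HG, host of the miR-17-92 cluster, MIR181A1HG and MIRLET7BHG were higher (log2 fold change at day 19 1.28, 1.41 and 1.42), and MIR210HG, host of a microRNA of the hypoxia response, was lower (-1.88). MIR155HG, the host of miR-155 in activated B cells, had 5.03 ± 1.32 CPM in culture and 5.44 ± 0.474 at day 19 (SD, n = 3; edgeR adjusted p = 0.938).

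LINC00926 (chromosome 15, 57300365 to 57307769, plus strand) is known as a transcript of B cells and starts 1084 bases after the end of TCF12 on the same strand. Its CPM was 1.60, 2.04 and 0.698 in culture, 5.72, 5.88 and 5.69 at day 19, and 10.0, 5.97 and 5.48 at day 40. LINC01480 (chromosome 19, 41535183 to 41536904, plus strand) is the only member with a single exon block. It had 0.493, 0.125 and 0.660 CPM in culture, 1.79, 2.04 and 2.08 at day 19, and 3.42, 1.77 and 2.03 at day 40. In both genes day 40 replicate 1 stood above the other femur libraries. They were also the only members with a mean at day 40 above that at day 19.

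LINC01238 (chromosome 2, 241970683 to 241977276, plus strand) lies within LINC01237 on the same strand, with no shared exon base. LINC01238 had 1.11, 0.832 and 0.893 CPM in culture, 6.43, 8.92 and 9.73 at day 19, and 5.47, 6.52 and 5.97 at day 40. LINC01237 is not of type lincRNA and so not a member. Its culture level was 1.05 ± 0.301 CPM (SD, n = 3), with 5.11 ± 0.728 on day 19 and 3.37 ± 0.250 on day 40, and reads of the nested genes may not be fully separated.

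AC245060.2 (chromosome 22, 22293733 to 22294794, plus strand) lies in the immunoglobulin lambda variable region, with 12 annotated variable genes within 100 kb. It was the member with the highest culture level, 3.66, 1.58 and 3.07 CPM, and had 8.36, 10.7 and 9.16 CPM at day 19 and 8.56, 7.57 and 8.34 at day 40. AL035696.3 (chromosome 6, 181466 to 205484, minus strand) lies 86146 bases from DUSP22. It had 0.493, 0.291 and 0.388 CPM in culture, 3.35, 3.42 and 3.34 at day 19 and 1.53, 2.44 and 2.53 at day 40. AL035696.4 on the other strand shares 20.6% of its exon bases. All day 19 libraries of AL035696.3 were above all day 40 libraries.

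AL133467.1 (chromosome 14, 95516136 to 95517911, plus strand) lies between SYNE3 and GLRX5. It had 0.288, 0.374 and 0.116 CPM in culture, 3.71, 4.60 and 4.47 at day 19, and 1.08, 1.80 and 2.99 at day 40, where replicate 1 was just inside the limit of 1 CPM. AC110285.2 (chromosome 17, 81388126 to 81390256, minus strand) had 1.15, 0.707 and 1.13 CPM in culture, 4.16, 7.12 and 5.30 at day 19, and 2.38, 4.75 and 2.61 at day 40. AL713998.1 (chromosome 6, 67887646 to 67889339, minus strand) had 0.288, 0.250 and 0.349 CPM in culture. It had 1.43, 2.61 and 2.82 CPM at day 19 and 2.08, 2.41 and 2.24 at day 40, and its nearest coding gene, ADGRB3, was 746028 bases away. No function of these clone-named transcripts is given here.

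**Figure D1:**
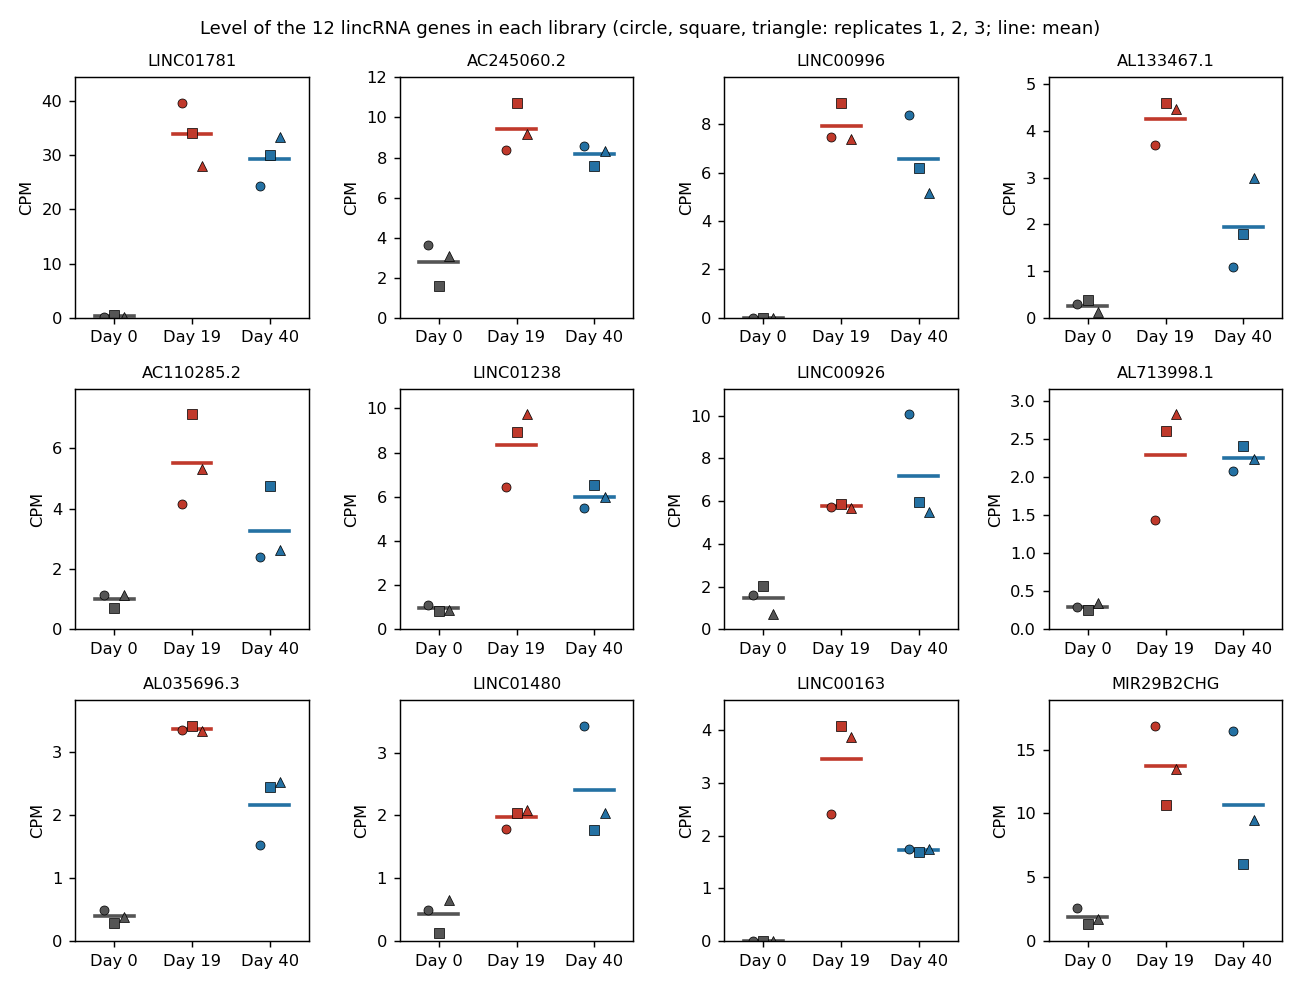
Each panel plots 1 of the 12 genes as CPM (vertical axis, from 0) in the 3 libraries of each group, with the group mean as a line. In every panel all 6 femur libraries lie above all 3 culture libraries, which the choice of members fixes, and the spread between femur libraries differs from 1.42 times in AC245060.2 to 4.26 times in AL133467.1.

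All 12 members were called higher at day 19 (edgeR's quasi-likelihood test, adjusted p under 0.05), beside 26.3% of the 15163 genes tested, and all 12 at day 40, beside 23.3%. Their median log2 fold change was 2.92 at day 19 and 2.499 at day 40, also with LINC00996 and LINC00163 at their bounds, against 0.01 for all genes at each day. The rule used these contrasts and culture is shared by them, so nothing is read from these counts. Among the 267 other lincRNA genes with at least 1 CPM in every femur library, 69 were called higher and 63 lower at day 19, and 58 and 54 at day 40. The rule took 12 of 279 lincRNA genes that met its level (4.30%), and the same conditions would take 25 of 435 antisense genes (5.75%) and 318 coding genes (3.05%). The mirrored conditions, at least 1 CPM and at least 2 times higher in every culture library, were met by 8 of 297 lincRNA genes (2.69%), 5 of 377 antisense genes (1.33%) and 114 coding genes (1.11%).

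At the fold limit the members nearest to it were AC245060.2 and AC110285.2 (lowest femur over highest culture CPM 2.07 in each) and MIR29B2CHG (2.33). Just outside were LINC02532 (1.99), AC005332.2 (1.91) and AC016168.1 (1.87). At the level limit AL133467.1 (lowest femur CPM 1.08), AL713998.1 (1.43) and AL035696.3 (1.53) were just inside, and AC004253.1 (0.983), AP000345.2 (0.849) and DKFZP434A062 (0.830) just outside.

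Per exon length LINC01781 stood apart from all other members, with 44.5 CPM per kb of exon on average in femur and a range of 34.3 to 55.8. AC245060.2 came next with 16.8 (14.4 to 20.5), and these ranges overlapped neither each other nor that of any lower member. LINC00996 had 3.33, AL133467.1 3.13, AC110285.2 2.80 and LINC01238 2.51 CPM per kb, with ranges that overlapped from neighbour to neighbour in this order. The others, from LINC00926 at 1.76 to MIR29B2CHG at 0.741 CPM per kb, overlapped in the same way. In culture AC245060.2 was the highest per length, at 5.28 CPM per kb, and LINC01781 had 0.386. The order within femur therefore differed from that in culture. Gene models hold all annotated exons, so a gene that uses few of them is understated on this scale.

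**Figure D2:**
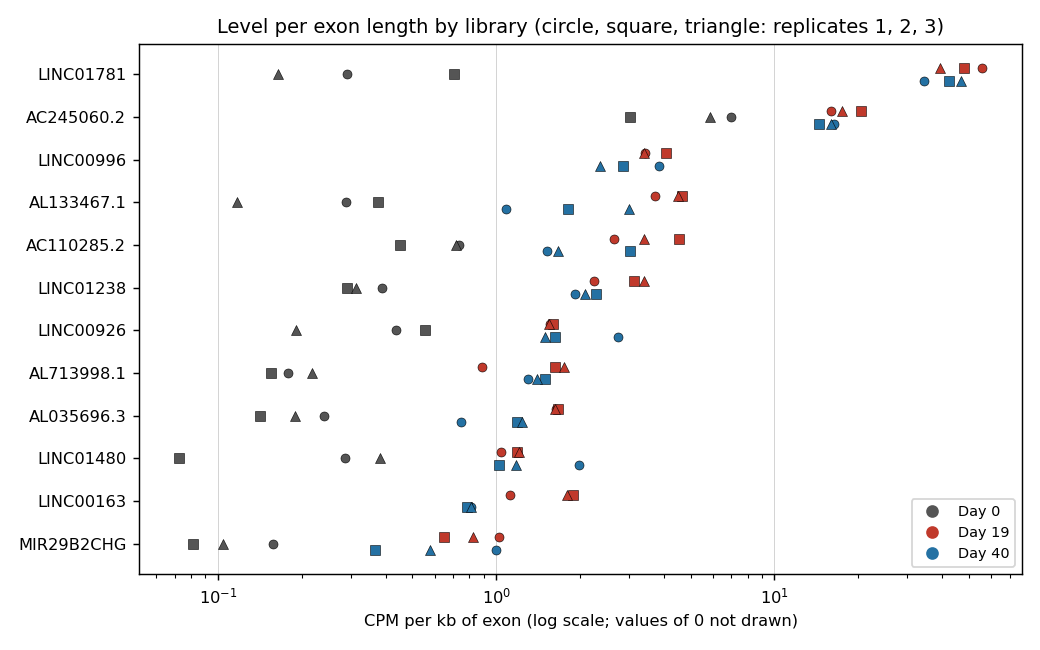
The horizontal axis, on a log scale, gives CPM per kb of exon for each gene (rows, sorted by the femur mean) and each library, with colour for the group and the shape of the point for the replicate. LINC01781 and AC245060.2 lie to the right of the other genes in femur, and LINC00996 and LINC00163 have no culture points because these are 0.

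Transcript features were set beside those of the 267 other lincRNA genes, with no test. The longest transcript of a member had a median of 1880.5 bases (524 to 15145) against 2070, and a median GC content of 50.5% (39.4% to 64.3%) against 47.9%. The median number of exon blocks was 2.5 against 2, and the longest open reading frame from ATG to stop had a median of 101 codons (26 to 199) against 81. The members lay farther from coding genes, at a median of 14234 bases against 1843, and had a lower mean in culture, at a median of 0.408 against 3.71 CPM, which the rule favours. They lay on 10 chromosomes, and 8 of 12 overlapped no other annotated gene.

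The comparison of day 40 with day 19 asks whether the members kept their level during growth in the femur. The rule did not set these groups against each other, but it used the same 6 femur libraries. The lowest femur value, which had to meet both limits, was in a day 40 library for 11 of 12 members. A gene below a limit at either femur day could not be a member, so the rule leaves out some larger falls and some larger rises. The shares of all genes given beside the members are not limited to genes that pass the rule. No member was called (0 of 12, edgeR adjusted p from 0.0533 to 0.981), beside 3.23% of all genes called higher and 1.45% called lower. At an unadjusted p under 0.05 there were 5 of 12, all with lower values at day 40, beside 6.94% of all genes lower and 9.78% higher. Of the members, 10 of 12 had a negative log2 difference, against 49.1% of all genes. DESeq2 and limma voom each called 2 members lower, LINC00163 and AL133467.1. With the sampling period as a block, edgeR called the same pair lower (adjusted p = 0.0482 and 0.0373), beside 2.07% of all genes. At day 40 against day 19, 6 of 12 members were lower in every pair of libraries of a period. In contrast 0 were higher in every pair, beside 22.4% lower and 22.6% higher of all genes. In the pair of replicate 1 the day 40 library carries the earlier date, so that pair cannot be read as a course over time. The median difference was -0.31 for the members, 0.00 for all genes and -0.04 for the other lincRNA genes.

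LINC00163 had the smallest p, with 3.45 ± 0.907 CPM at day 19 and 1.73 ± 0.0281 at day 40 (SD, n = 3; log2 difference -0.99, SE 0.25, edgeR adjusted p = 0.0533). AL133467.1 had 4.26 ± 0.483 and 1.96 ± 0.963 CPM (log2 difference -1.12, SE 0.33, edgeR adjusted p = 0.0824), but its difference was -0.49 (adjusted p = 0.847) without day 40 replicates 1 and 2. AL035696.3 had 3.37 ± 0.0405 and 2.17 ± 0.557 CPM (-0.63, SE 0.23, edgeR adjusted p = 0.176). In these 3 members all day 19 libraries were above all day 40 libraries, as in 13.3% of all genes tested, and in no member was it the other way, beside 13.6% of all genes. AC110285.2 and LINC01238 had log2 differences of -0.75 and -0.47 (edgeR adjusted p = 0.190 and 0.182). Their libraries overlapped between the days, but both genes, like MIR29B2CHG, were lower at day 40 in each of the 3 periods.

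For the most abundant member, LINC01781, the log2 difference was -0.21 with a 95% interval of -0.62 to 0.21, and for LINC00996 it was -0.26 (-0.75 to 0.22). MIR29B2CHG had -0.36 with a wider interval of -1.10 to 0.38. AL713998.1 had -0.02 (-0.64 to 0.60) and AC245060.2 -0.20 (-0.71 to 0.30). LINC00926 and LINC01480 had positive differences of 0.32 (-0.40 to 1.04) and 0.29 (-0.53 to 1.11), and each turned negative when day 40 libraries were left out: LINC00926 to -0.06 without replicates 1 and 2, LINC01480 to -0.04 without replicate 1. Day 40 replicate 1 was the lowest femur library for 5 of 12 members and the highest for 2. Day 19 replicate 2 was the highest for 6.

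**Figure D3:**
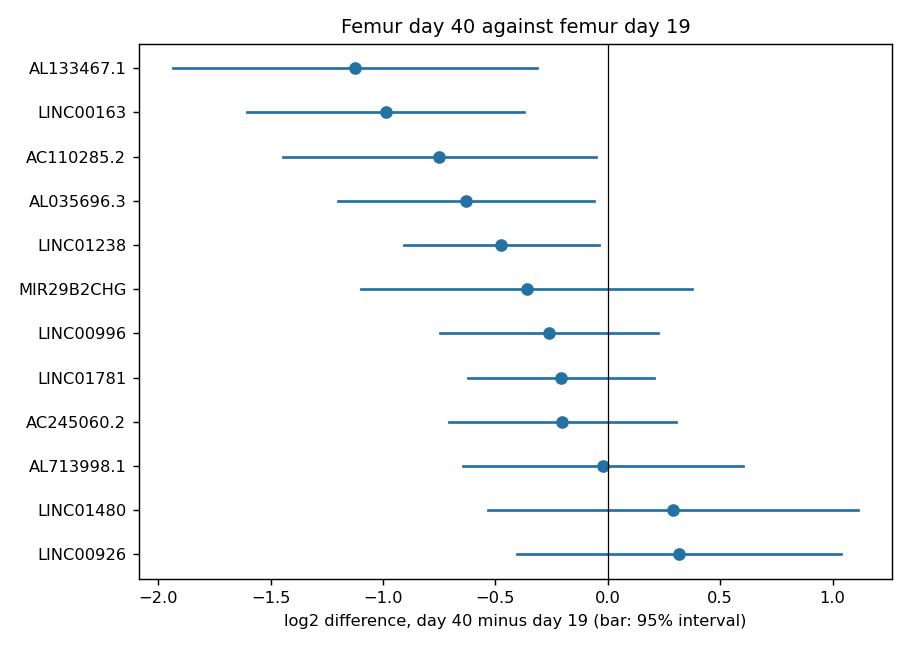
Points give the log2 difference between day 40 and day 19 for each gene, with bars for 95% intervals. The values run from -1.12 in AL133467.1 to 0.32 in LINC00926, and 5 intervals lie wholly below 0.

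Coding genes near the members were not used by the rule, and they tended to be higher in femur too. Coding genes here are those of GENCODE type protein_coding, which leaves out the immunoglobulin variable genes near AC245060.2. Of 29 such genes within 100 kb of a member, 20 had enough counts to be tested. At day 19, 14 of the 20 were called higher and none lower, where 25.4% of all tested coding genes were called higher and 30.7% lower. At day 40, 10 were higher and none lower, beside 22.7% and 27.3%. LINC00996 alone had 6 of these neighbours, all higher at day 19. Without them 8 of 14 were higher at day 19 and 6 of 14 at day 40. Of the 10 members with a tested neighbour, 8 had a neighbour that was higher at day 19 and 6 at day 40. Neighbours of a locus are not independent of each other.

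Counting only the nearest coding gene of each member, 9 were tested, 5 were higher and none lower at day 19, and 4 were higher and none lower at day 40. The nearest coding genes of the 267 other lincRNA genes gave 57 higher and 64 lower of 200 at day 19 (28.5% and 32.0%), and 51 and 52 at day 40. No test of the difference between these shares was made. Between day 40 and day 19 no nearest gene was called in either direction. Among all 20 neighbours 3 were lower and none higher, beside 1.71% and 3.82% of all tested coding genes. With the sampling period as a block 6 were lower and 0 higher, beside 2.07% and 4.3% of all genes in that fit. They were SYNE3, AC073111.5, REPIN1, RARRES2 and the nearest genes DUSP22 and GLRX5. Of these, AC073111.5, REPIN1 and RARRES2 all lie at the LINC00996 locus.

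BAHCC1, which encodes a chromatin reader protein, starts 5219 bases from AC110285.2 and is transcribed away from it. It had 2 counts in the 3 culture libraries, 27.4, 48.4 and 48.0 CPM at day 19, and 22.6, 41.9 and 21.3 at day 40 (chromosome 17, 81395475 to 81466332). The ratio to culture was 1527-fold (422 to 12616) at day 19 and 1086-fold (300 to 8970) at day 40, with exact 95% intervals for counting error only (edgeR adjusted p = 4.73e-08 and 1.9e-07). Unlike BAHCC1, its neighbour AC110285.2 was already present in culture. Within each femur day replicate 2 was the highest library for both genes.

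SYNE3, which encodes a nesprin of the nuclear envelope, lies 40300 bases from AL133467.1 on the opposite strand, with start sites facing away. It had 2.67, 3.49 and 1.51 CPM in culture, 85.0, 103 and 104 at day 19, and 38.4, 69.5 and 59.3 at day 40 (log2 fold change 5.16, SE 0.27, edgeR adjusted p = 2.49e-08 at day 19). It was also lower at day 40 than at day 19 (log2 difference -0.79, SE 0.20, edgeR adjusted p = 0.0464). GLRX5, an iron-sulfur cluster gene 15592 bases on the other side of AL133467.1 and the nearer of the pair, had 52.2 ± 4.96 CPM in culture and 59.4 ± 4.78 at day 19 (edgeR adjusted p = 0.413).

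At the LINC00996 locus, GIMAP8 had 1 count in culture, 1.21, 1.57 and 0.999 CPM at day 19 and 1.34, 1.15 and 0.705 at day 40 (edgeR adjusted p = 1.4e-05 at day 19). The ratio to culture was 92.6-fold (16.2 to 3700) at day 19, with the same kind of interval. It lies downstream on the same strand, so transcripts that run on from LINC00996 cannot be told apart from its own. On the other side AC073111.5 rose from 6.50 ± 0.426 to 30.6 ± 3.70 CPM at day 19, and REPIN1, a zinc finger gene, from 268 ± 14.1 to 558 ± 21.8 CPM. ZNF775, RARRES2 and LRRC61 were also higher at day 19 (log2 fold change 0.55, 1.08 and 0.33). GIMAP7 had no count in any library. AC073111.5 and REPIN1 were lower at day 40 than at day 19 (edgeR adjusted p = 0.0409 and 0.0103).

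DUSP22, a dual-specificity phosphatase gene, is the nearest coding gene of AL035696.3. From 29.3 ± 0.782 CPM (SD, n = 3) in culture it rose to 94.1 ± 9.21 on day 19 and 74.4 ± 8.15 on day 40 (log2 fold change 1.60 and 1.26). VPREB1, which encodes a chain of the surrogate light chain of pre-B cells, is the nearest gene of type protein_coding to AC245060.2, at 48218 bases. The immunoglobulin variable gene IGLV5-52, of another type and so not counted, is nearer at 23933 bases. VPREB1 was higher at day 19 (log2 fold change 1.15, edgeR adjusted p = 0.00895), and at day 40 it had a log2 fold change of 0.40 (adjusted p = 0.333). Near LINC01238, AC131097.2 was higher at both days (2.66 and 1.89). RTP5 had no count in culture and 0.402, 0.475 and 1.35 CPM at day 19. At day 40 RTP5 had 0.0744, 1.32 and 0.207 CPM. Its call as higher at day 40 (edgeR adjusted p = 0.0183) thus rested mostly on replicate 2. CD46, a complement regulator 6005 bases from MIR29B2CHG, was higher by 0.45 and 0.62 on the log2 scale. CD34, the nearest coding gene of MIR29B2CHG and a marker of haematopoietic progenitors, had a mean of 0.0129 CPM in culture and 0 in femur.

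Other nearest genes were not called. TCF12, an E-protein transcription factor gene that ends 1084 bases before LINC00926, had 131 ± 6.39 CPM in culture, 146 ± 1.11 at day 19 and 142 ± 7.53 at day 40 (log2 fold change 0.07 and 0.03, edgeR adjusted p = 0.380 and 0.677). FAM207A near LINC00163 had log2 fold changes of 0.20 and 0.13, and CEACAM21 near LINC01480 0.15 and 0.54 (adjusted p = 0.0812, 0.252, 0.573 and 0.0513). The other tested genes around these members were ITGB2 (-0.58 and -0.49, not called), SLC38A10 near AC110285.2 (0.20 and 0.06, not called) and DMAC2 near LINC01480, which was higher at day 19 (0.25, edgeR adjusted p = 0.0268).

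**Figure D4:**
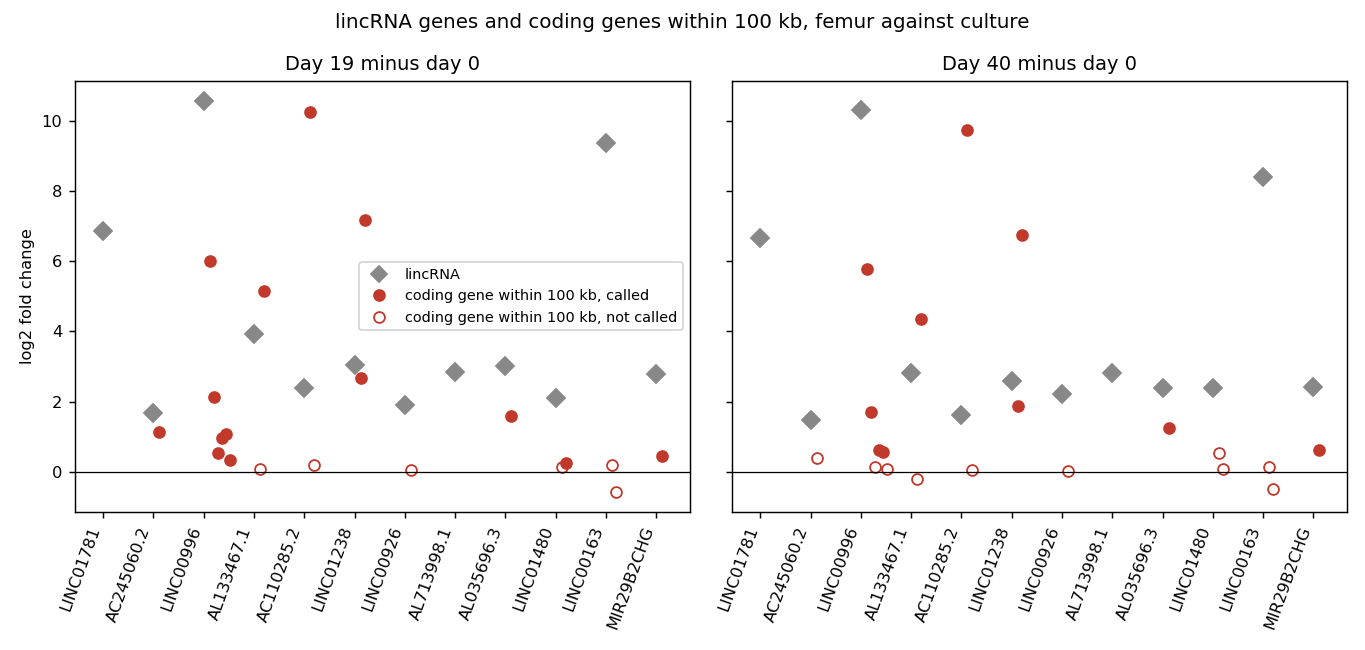
For each of the 12 genes (horizontal axis) the grey diamond gives its own log2 fold change against culture and circles give the tested coding genes within 100 kb, nearest first, filled where called, at day 19 (left) and day 40 (right). Fitted values of LINC00996, LINC00163, RTP5, BAHCC1 and GIMAP8, with 0 to 2 counts in culture, depend on the prior count, and no filled circle lies below 0.

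Beside the members, 68 further long noncoding RNA genes were found in the files, from a list chosen with earlier results known, and 47 were tested. At day 19, 16 were higher and 6 lower (34.0% and 12.8%, beside 26.3% and 26.5% of all genes), and at day 40 15 were higher and 5 lower (31.9% and 10.6%, beside 23.3% and 23.3%). Between day 40 and day 19, 3 were higher and 1 lower (6.38% and 2.13%, beside 3.23% and 1.45% of all genes). LINC00487 and LINC01857, lincRNAs chosen here after their values were seen, were among the higher ones, with log2 differences of 1.53 and 1.59 (edgeR adjusted p = 8.33e-04 and 0.00242). Both had been lower at day 19 than in culture. At day 40 against culture, LINC00487 had a log2 fold change of 0.11 and LINC01857 was still lower at -1.04 (edgeR adjusted p = 0.653 and 0.00199).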

How the data were processed

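The deposited values are raw read counts per Ensembl gene for 9 libraries. The submitters' processing notes name FastQC 0.11.5, STAR 2.5.2a, featureCounts 1.4.6, DESeq2 1.40.1 and the build hg38. No source used here gives the annotation, the strand setting or how multi-mapping and mouse reads were handled, so reads of overlapping genes cannot be separated. GENCODE release 29 (GRCh38) gave types and positions for 57980 of 58243 identifiers. Coding genes are those of its type protein_coding, so immunoglobulin variable genes are not among them. CPM in the text is counts over the library total. The members and lists were chosen with earlier results of these data known.

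Tests used edgeR 4.0.16 in R 4.3.3. After filterByExpr 15163 genes, all 12 members included, were fitted over all 9 libraries with TMM scaling, a coefficient per group and the two-sided quasi-likelihood F-test, with Benjamini-Hochberg adjustment over all genes and calls at 0.05. SE is the log2 change over the square root of F, and 95% intervals use 6 residual degrees of freedom. The sampling period, from the numbers in the titles read as dates, was checked as a pairing. Deviations of day 19 and day 40 libraries of the same period correlated at 0.101 to 0.305 (different periods -0.184 to 0.0656), and every such pair was over 0.1. Culture pairs of a period gave -0.0500 to 0.118 with day 19 (different periods -0.137 to 0.0868). With day 40 they gave 0.0809 to 0.202 (different periods -0.200 to 0.0150). Pairs of a period thus lay above the others for culture with day 40 too, but overlapped them for culture with day 19. The main fit left the period out, and the replicate block was fitted over all 9 libraries, culture included. Alternatives used DESeq2 1.42.0 and limma 3.58.1. On simulated counts with 200 changed genes for day 40 against day 19, 92.3%, 67.7% and 47.7% of changes of log2 size 2, 1 and 0.5 were recovered over 14838 genes, and 8.16% of calls were unchanged genes. The changed genes were drawn at random from genes of every level, so these rates need not hold for members with few counts.

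Named were the 12 members, by level, ratio and list, the genes beside each limit, and coding neighbours within 100 kb. A count of 0 was taken to allow 3 counts over a group, for counting error only.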

Additional observations from a re-analysis of the deposited data

How the results depend on the processing

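Counts of members depend on the limits of the rule: 23 with a lowest femur CPM of 0.5, 7 with 2, 26 with a ratio of 1.5 and 6 with 3. With TMM-scaled CPM, and without the 2 doubtful day 40 libraries (chosen after seeing the data), there were 10 and 16. In day 40 against day 19 the number of members called lower was 0, but 3 without a filter on low counts, 2 with DESeq2, 2 with limma voom, 2 with the sampling period as a replicate block, and 0 to 2 when each library was left out in turn (2 without culture replicate 2; 1 without culture replicate 3, day 19 replicate 1, day 40 replicate 2 or day 40 replicate 3). None was called higher in any of these. Among the 20 neighbours, those lower at day 40 than at day 19 went from 3 to 6 with the replicate block, chosen after seeing the data. Apart from these and GLRX5 below, the replicate block moved no count of calls listed here by over 1.5 times. Of single nearest genes, FAM207A was called higher at day 19 with total library size (0.29), and CEACAM21 at day 40 with total library size, limma voom and without culture replicate 2 (0.63, 0.57 and 0.75). The call of AC131097.2 at day 40 was lost without both doubtful libraries (1.66). With a window of 10 kb, 2 of the 3 nearest genes tested were higher at each day, against 5 of 9 at day 19 and 4 of 9 at day 40. At day 40, 1 was lower without a filter, with the replicate block and without culture replicate 1 (0 to 1 over the libraries left out), in each case GLRX5. AL713998.1 had day 40 against day 19 differences of 0.0353 with limma voom and 0.0113 with the replicate block, and -0.264 to 0.158 with a library left out. LINC00926 had -0.0557 without both doubtful day 40 libraries. With a library left out, LINC01480 ranged from -0.0414 (without day 40 replicate 1) to 0.467, and TCF12 at day 40 against culture from -0.0170 (without culture replicate 3) to 0.0709, and was -0.00398 without day 40 replicate 3. Known long noncoding RNAs called at day 40 fell to 7 higher and 3 lower without both doubtful libraries, which leaves 1 library in that group, assumed to vary like the others. Low members rest on few counts (32 to 71 per femur library for AL713998.1), which limits what can be called. The libraries' total as the only scaling moves the median of all genes to 0.10 at day 19 and 0.0975 at day 40.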
